A study of Mus musculus with 9 samples.

Results

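The skeletal muscle transcriptome of mice fed a high-fat diet was compared with that of mice fed a control diet, in 6 of the 9 libraries of a study whose other 3 libraries came from mice on the high-fat diet that also received L-carnitine in their water (100 mg/kg/day) and enter only the estimate of the spread. All mice were C57BL/6J, a common inbred laboratory strain, of genotype WT, and were 9 weeks old when assigned to a diet. After 2 weeks of acclimatization fat supplied 10% of the calories of the control mice and 60% of those of the high-fat diet mice, in both cases for 8 weeks. All were fasted for 6 h before tissue was taken, so fasting is shared by both groups. The labels do not name the muscle, and they do not say that each of the 3 libraries of a group came from a separate mouse, so the p-values describe only how far these libraries spread, which may be technical. Of 19335 annotated features, 7523 had enough counts to be tested. All of them are covered here, whatever their function.

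Muscle switches between glucose and fatty acids as fuel. Fatty acids that enter the fibre bind nuclear receptors of the PPAR family, which induce genes of fatty acid uptake, mitochondrial oxidation and the brake on glucose oxidation. A short fast adds the programme of glucocorticoids and FOXO factors, which induce ubiquitin ligases and autophagy genes and restrain insulin and mTORC1 signalling. Immediate early genes, by contrast, respond within minutes to contraction, calcium, cyclic AMP or handling of the tissue.

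The libraries held 2315985 to 3773649 counts each. The tissue label was checked against markers of fast fibres, and all 12 were counted, with a summed level, in counts scaled to the library's total (CPM), of 47962 to 76423 in control and 58730 to 74138 on the high-fat diet. Slow fibre markers summed to 33.3 to 97.6 and 28.6 to 79.0 CPM. Among the markers of other cell types, the summed adipocyte level was 40.8 to 53.1 CPM in control and 65.4 to 93.8 on the high-fat diet, most of it from Fabp4, a fatty acid binding protein that capillary endothelium also makes. In control 2 Fabp4 had 81 counts and the adipocyte gene Cfd 40. The defining adipocyte gene Adipoq had 2 counts in high-fat diet 3 and 0 in the other 5 libraries, and Plin1 had 4 counts each in high-fat diet 1 and 2 and 0 elsewhere. Of 10 endothelial markers, 8 were higher and 2 lower (median log2 fold change 0.46), and they summed to 59.6 to 93.7 CPM in control and 82.6 to 150.3 on the high-fat diet. Smooth muscle and pericyte markers summed to 79.4 to 86.6 and 98.6 to 138.9. Of the 6 tested, 4 were higher and 2 lower (median 0.49). Rgs5, 1 of these markers, had 79, 45 and 78 counts in control and 104, 196 and 138 on the high-fat diet. Erythrocyte markers summed to 8.36 to 14.3 and 3.71 to 7.15, from few counts, and only 1 of them was tested (log2 fold change −1.53). In bulk tissue, fewer cells of a type and less RNA per cell cannot be told apart.

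Most counts fell on features that overlap a gene on the other strand. The 3 features with the most counts were Rabep2, A930016O22Rik and Ube2c, which lie opposite the fast muscle genes Atp2a1, Ckm and Tnnc2 and together held 38.8% of the counts of the 6 libraries. The libraries came from a strand-specific kit, and none of the sources used here gives the strand setting of the counting, so the counts of a feature and of the gene opposite to it cannot be told apart with certainty. The opposite gene in the file is therefore named with the features below, and for Specc1l, Acadl, Gsk3b and Psme4, which have none in the file, the GENCODE M21 annotation places one there that shares no exon with them. Several features have more than 1 opposite gene: besides those named below, Gm10570 lies opposite Fabp3, Apol6 opposite Mb, Gm31251 opposite Myh7, Usp37 opposite Plcd4, Gm14320 opposite Tmem189 and Gm12184 opposite Trim7, and Gm10603 lies opposite Ucp3. Features with no opposite gene numbered 10946, of which 3034 were tested, and features with one numbered 8389, of which 4489 were tested.

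On the high-fat diet 4 features fell and 0 rose at an adjusted p below 0.05 (edgeR quasi-likelihood F-test with Benjamini-Hochberg adjustment), which is 0.0532% of the features tested for falls and 0.0% for rises. They were the rows of the mitochondrial carrier Slc25a25 (opposite Naif1), the zinc finger gene Zfp142 (opposite Plcd4), the autophagy gene Tecpr2 and the non-coding feature Gm26714 (opposite Tcim). At an unadjusted p below 0.05 there were 273 lower features (3.63%) and 202 higher ones (2.69%), together 6.31% of those tested. In 516 features (6.86%) all 3 high-fat diet libraries lay below all 3 control libraries, and in 544 (7.23%) they lay above. With DESeq2, 29 features fell and 6 rose, and with limma-voom 7 fell and 1 rose, the 4 features among them in both. The calls rested on few libraries: without control 2 or high-fat diet 3 no feature passed, without control 1 there were 13, without control 3 or high-fat diet 1 there was 1, and without high-fat diet 2 there were 2, neither of them among the 4.

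**Figure D1:**
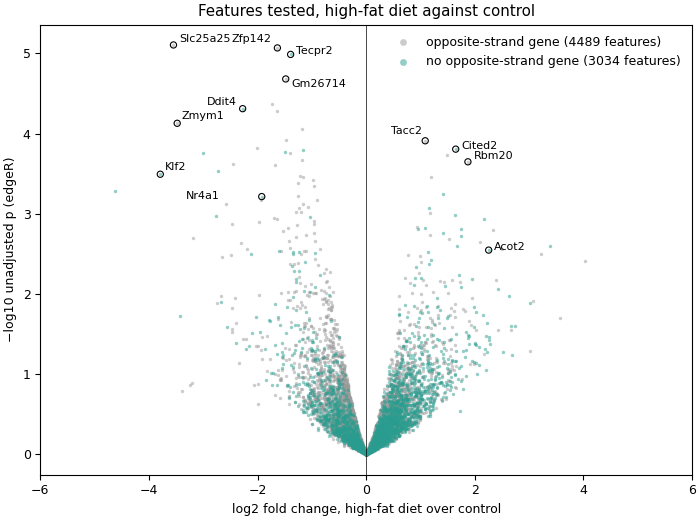
Each point is 1 of the 7523 features tested, with its log2 fold change (high-fat diet over control) on the x axis and −log10 of the unadjusted edgeR p on the y axis; colour marks whether a gene lies on the other strand, and the circled features are named in the text. The 4 features that passed, Slc25a25, Zfp142, Tecpr2 and Gm26714, all lie on the left, and no feature on the right reaches their height.

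Slc25a25 encodes a calcium-regulated carrier that exchanges ATP-Mg for phosphate across the inner mitochondrial membrane. It lies on chromosome 2 from 32304499 to 32341457 on the minus strand (GRCm39), and 379 bp of its exons are shared with Naif1, a gene on the plus strand whose protein has been linked to apoptosis. Its counts were 108, 30 and 82 in control 1, 2 and 3 and 14, 3 and 4 in high-fat diet 1, 2 and 3. After TMM scaling, the control libraries were at 39.4, 14.7 and 27.0 CPM and the high-fat diet libraries at 4.96, 0.696 and 1.49 CPM. Every control library was above every high-fat diet library, and control 2 was the lowest of its group. The means were 27.0 ± 12.4 and 2.38 ± 2.27 CPM (SD, n = 3 each). The log2 fold change was −3.55 (SE 0.64, adjusted p = 0.0258). Naif1 itself was at 4.75, 1.47 and 4.93 CPM in control and 1.42, 2.09 and 1.11 CPM on the high-fat diet (log2 fold change −1.24, SE 0.92, adjusted p = 0.906), and its groups overlapped.

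Tecpr2, which encodes a tectonin repeat protein that acts in autophagy and at sites where the endoplasmic reticulum exports cargo, was the only one of the 4 with no gene on the other strand (chromosome 12, 110855698 to 110938828, plus strand). It was at 263, 370.0 and 254 CPM in the control libraries and 116, 100.3 and 122 CPM in the high-fat diet libraries. The highest high-fat diet library lay far under the lowest control. The means were 296 ± 64.6 and 113 ± 11.3 CPM (SD, n = 3 each). The log2 fold change was −1.39 (SE 0.26, adjusted p = 0.0258).

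Zfp142 lies opposite Plcd4, which encodes a calcium-dependent phospholipase C, and shares 2101 bp of exon with it (chromosome 1, 74604286 to 74627405, minus strand). Its control libraries were at 136, 159 and 164 CPM and its high-fat diet libraries at 57.1, 40.4 and 50.5 CPM. The means were 153 ± 15.1 and 49.3 ± 8.42 CPM (SD, n = 3 each). The fitted fall was −1.64 in log2 units (SE 0.30, adjusted p = 0.0258). The row of Plcd4 was at 66.4, 65.1 and 46.7 CPM in control and 36.2, 42.0 and 49.0 CPM on the high-fat diet, with an overlap between the groups (log2 fold change −0.48, SE 0.28, adjusted p = 0.864). Gm26714, a long non-coding feature on chromosome 8 (24912420 to 24930024, plus strand), shares 337 bp with Tcim, a small regulator of transcription. It was at 168, 228 and 108 CPM in control and 54.3, 72.6 and 52.7 CPM on the high-fat diet, which is −1.48 in log2 units (SE 0.29, adjusted p = 0.0392). The means were 168 ± 60.1 and 59.9 ± 11.1 CPM (SD, n = 3 each). Tcim itself had few counts, with 7.30, 8.32 and 2.96 CPM in control and 0, 3.25 and 2.23 CPM on the high-fat diet (adjusted p = 0.866).

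Promoters are shown for genes at both ends of the ranking because Nr4a1 is a known target of cyclic AMP signalling and Trim63 of FOXO factors. The sequences run from 250 bases before to 50 after a RefSeq transcript start, in GRCm38.p6 and 5′ to 3′ on the gene's strand. Capitals mark the cyclic AMP response element TGACGTCA in Slc25a25, Tecpr2 and Retreg1, its shorter form TGACG, read on either strand, in Nr4a1, and the FOXO core GTAAACA, read on the other strand, in Trim63. The windows are chr2:32424017-32424316 (minus strand, 1 of 3 starts of Slc25a25), chr12:110889014-110889313 (plus), chr15:25843048-25843347 (plus, 1 of 4 starts of Retreg1), chr15:101266596-101266895 (plus) and chr4:134314870-134315169 (plus).
Slc25a25: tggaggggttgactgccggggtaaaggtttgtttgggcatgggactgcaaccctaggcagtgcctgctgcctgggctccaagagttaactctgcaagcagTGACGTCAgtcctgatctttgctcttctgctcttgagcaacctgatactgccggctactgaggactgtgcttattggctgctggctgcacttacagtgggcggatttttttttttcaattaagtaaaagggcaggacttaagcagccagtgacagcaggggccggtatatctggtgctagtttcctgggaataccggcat
Tecpr2: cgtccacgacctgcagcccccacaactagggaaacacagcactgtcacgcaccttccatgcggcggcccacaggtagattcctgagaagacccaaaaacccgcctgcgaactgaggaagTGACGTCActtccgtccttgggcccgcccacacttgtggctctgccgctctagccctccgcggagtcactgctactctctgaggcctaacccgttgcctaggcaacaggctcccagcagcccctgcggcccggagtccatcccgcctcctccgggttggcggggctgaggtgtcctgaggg
Retreg1: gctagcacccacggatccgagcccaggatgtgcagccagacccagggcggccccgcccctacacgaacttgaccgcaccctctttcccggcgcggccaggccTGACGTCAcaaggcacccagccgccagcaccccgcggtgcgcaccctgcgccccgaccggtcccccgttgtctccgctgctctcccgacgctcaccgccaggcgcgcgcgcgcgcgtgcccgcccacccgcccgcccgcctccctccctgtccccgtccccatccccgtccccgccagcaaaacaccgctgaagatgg
Nr4a1: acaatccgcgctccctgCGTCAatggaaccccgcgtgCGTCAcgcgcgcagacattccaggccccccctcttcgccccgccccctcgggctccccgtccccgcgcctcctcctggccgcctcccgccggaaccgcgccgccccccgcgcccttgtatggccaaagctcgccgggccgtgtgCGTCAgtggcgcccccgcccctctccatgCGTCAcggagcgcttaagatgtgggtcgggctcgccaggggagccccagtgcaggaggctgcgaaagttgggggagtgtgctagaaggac
Trim63: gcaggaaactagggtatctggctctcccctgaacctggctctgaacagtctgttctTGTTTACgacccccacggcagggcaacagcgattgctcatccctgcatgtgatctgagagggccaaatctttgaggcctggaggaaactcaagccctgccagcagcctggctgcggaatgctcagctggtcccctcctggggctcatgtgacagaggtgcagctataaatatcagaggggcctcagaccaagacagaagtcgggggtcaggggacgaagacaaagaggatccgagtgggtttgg
The motifs were chosen after the values had been seen and were searched on both strands. The full element was found in 1.79% of the 32851 RefSeq promoter windows, the shorter TGACG, which every full element contains, in 20.8%, and the FOXO core in 3.65%. Among the leading genes, 2 of the 11 lower genes with a RefSeq promoter held the full element (Slc25a25 and Tecpr2), as did 1 of 12 higher genes (Retreg1). Some genes have several windows, and counted by window, as the shares above are, these were 2 of 13 and 1 of 17. No higher or lower gene other than Trim63 and Txnip held the FOXO core. Matches to the shorter TGACG lay in genes of both directions. Besides Nr4a1 (4 matches), the lower genes Zfp142 and Klf2 held 1 each, and the higher genes Sec24a and Acot2 held 2 and 1. The lower gene Jun and the higher gene Cited2 held 0. A match describes letters in a window and does not show that a factor binds there.

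The lower features that came next in order of p did not pass. The rule for naming them required groups that do not overlap, so the lack of overlap is no result about these features. Ddit4, which encodes an inhibitor of mTORC1 that stress and glucocorticoids induce, has no opposite gene and was at 35.4, 57.3 and 48.0 CPM in control and 8.51, 4.64 and 16.3 CPM on the high-fat diet (log2 fold change −2.27, SE 0.46, adjusted p = 0.0563). All 3 high-fat diet libraries lay under every control library. The coding feature 4930544D05Rik, which overlaps the span (no exon) of the acetylcholine receptor gene Chrne, was at 61.3, 117 and 67.1 CPM in control and 20.2, 37.4 and 14.9 CPM on the high-fat diet (−1.74, SE 0.35, log2; adjusted p = 0.0563). Chrne encodes the adult epsilon subunit of the receptor at the neuromuscular junction, and its own row was too low to test.

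Mpv17, an inner mitochondrial membrane protein needed to keep mitochondrial DNA, was at 88.7, 113 and 107 CPM in control and 51.8, 35.0 and 50.5 CPM on the high-fat diet (log2 fold change −1.17, SE 0.27, adjusted p = 0.0776). The sphingomyelinase gene Smpd4 was at 70.5, 88.1 and 41.8 CPM against 28.4, 23.4 and 18.6 CPM (−1.50, SE 0.34, log2; adjusted p = 0.0776). Neither has an opposite gene, and in both the groups did not overlap, as the rule for naming required. Zmym1, a zinc finger gene opposite Gm12940 and Gm12944, was at 19.3, 15.7 and 7.56 CPM in control and 1.06, 2.32 and 0 CPM on the high-fat diet; high-fat diet 3 had no count. Its fitted log2 fold change of −3.48 (SE 0.74, adjusted p = 0.0701) rests on low counts.

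The other 3 lower features were non-coding and lay opposite muscle or matrix genes. Gm15270, opposite the matricellular growth factor gene Ccn2, was at 94.2, 196 and 122 CPM in control and 48.2, 63.4 and 36.0 CPM on the high-fat diet (log2 fold change −1.47, SE 0.32, adjusted p = 0.0776). Ccn2 itself was at 4.75, 14.2 and 9.86 CPM against 0.709, 1.39 and 3.71 CPM, so its groups did not overlap either (−2.30, SE 0.68, log2; adjusted p = 0.233). Gm16170 lies opposite Trim7, a ubiquitin ligase gene whose protein binds glycogenin, and Gm17056 opposite Lsmem1. Their log2 fold changes were −1.18 (SE 0.26) and −1.65 (SE 0.34), with adjusted p = 0.0740 and 0.0563. Trim7 was also lower, at 51.8, 47.0 and 51.0 CPM in control and 31.9, 26.2 and 36.0 CPM on the high-fat diet, without overlap (adjusted p = 0.691).

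None of the 12 higher features named by rank passed the test. They too were named only where the groups did not overlap. Cited2, a co-regulator that competes for the coactivators CBP and p300, has no opposite gene and was at 12.8, 6.85 and 14.5 CPM in control and 37.6, 37.6 and 33.4 CPM on the high-fat diet (log2 fold change 1.65, SE 0.38, adjusted p = 0.0776). The high-fat diet libraries lay close together, far above the highest control. Rbm20, which encodes the splicing factor of titin and overlaps Gm16299 on the other strand, was at 7.30, 5.38 and 3.95 CPM against 18.8, 14.9 and 27.9 CPM (1.87, SE 0.44, log2; adjusted p = 0.0836). Gm16299 went the other way, with 23.0, 45.0 and 36.5 CPM in control and 10.6, 16.9 and 20.1 CPM on the high-fat diet (log2 fold change −1.13, SE 0.39, adjusted p = 0.436).

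Genes of the endoplasmic reticulum and the microtubules were in the same group. Sec24a, a cargo adaptor of COPII vesicles, was at 21.5, 26.4 and 31.9 CPM in control and 69.5, 52.7 and 92.8 CPM on the high-fat diet (log2 fold change 1.42, SE 0.36, adjusted p = 0.134). Retreg1, the receptor that feeds endoplasmic reticulum into autophagosomes, was at 24.1, 28.4 and 36.8 CPM against 72.3, 49.9 and 78.7 CPM (1.16, SE 0.31, log2; adjusted p = 0.156). Tacc2, which encodes a coiled-coil protein of centrosomes and microtubules and overlaps 4930513N20Rik, was at 266, 145 and 226 CPM in control and 385, 494 and 474 CPM on the high-fat diet (1.09, SE 0.24, log2; adjusted p = 0.0776). In all 3 genes the lowest high-fat diet library was above the highest control, as the rule for naming required. The cytoskeletal linker gene Specc1l (log2 fold change 2.16, SE 0.59) and the Kelch-family gene Klhl30 (1.64, SE 0.45) had fewer counts, with adjusted p = 0.175 and 0.173.

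Trim63, which encodes the muscle ubiquitin ligase MuRF1 of protein breakdown, was at 205, 162 and 204 CPM in control and 332, 245 and 630.2 CPM on the high-fat diet (log2 fold change 1.08, SE 0.30, adjusted p = 0.195). High-fat diet 3 was the highest library and high-fat diet 2 the lowest of its group. The same order was seen in E230016M11Rik, opposite the stress gene Gadd45a, at 259, 283 and 303 CPM in control and 578, 317 and 718 CPM on the high-fat diet (0.93, SE 0.26, log2; adjusted p = 0.194). The other 3 features lay opposite genes of lipid handling or sorting. Gm26588 is opposite Mgll, the monoacylglycerol lipase gene (log2 fold change 1.17, SE 0.32, adjusted p = 0.166), Gm15956 opposite Npc1, whose protein exports cholesterol from lysosomes (1.20, SE 0.29, log2; adjusted p = 0.0985), and Gm45822 opposite Tom1 and Hmgxb4 (1.48, SE 0.34, log2; adjusted p = 0.0777).

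**Figure D2:**
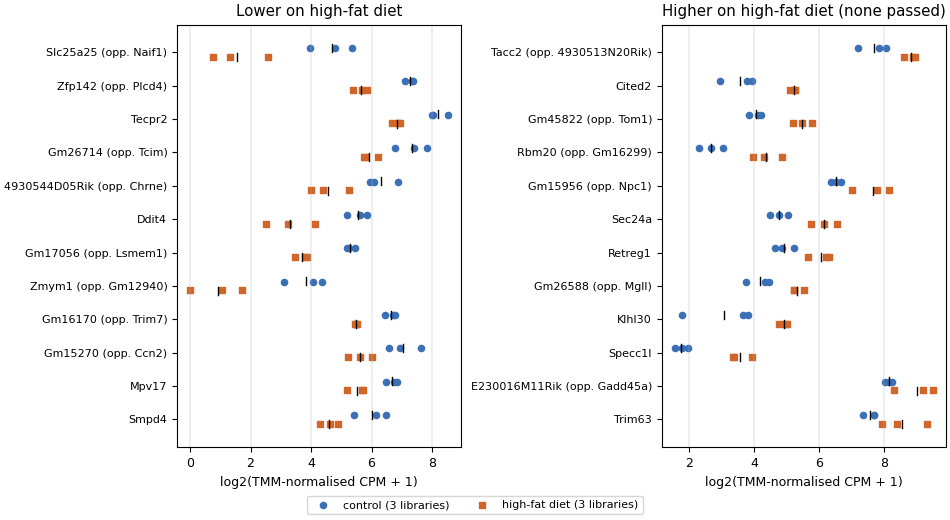
The 24 features named by rank are shown by library, with log2 of TMM-normalised CPM plus 1 on the x axis, blue circles for the 3 control libraries, orange squares for the 3 high-fat diet libraries and black ticks for the group means; the gene on the other strand is given in parentheses. In the left panel Slc25a25 and Zmym1 show the widest gaps, and in no feature of either panel do the groups overlap, which the rule for naming required.

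Genes of fatty acid use were mostly higher on the high-fat diet, though none passed alone. Of 28 PPAR target genes, 19 were tested, and 16 of these were higher and 3 lower, with a median log2 fold change of 0.62 beside 0.00 over all features tested and 0.12 over features with no opposite gene. Scaling by total counts only, in place of TMM, moves the median of all features to 0.17 and that of the PPAR targets to 0.77. Over the 6 fits that left out a library the list's median was 0.29 to 0.72. At an unadjusted p below 0.05, 7 were higher and 0 lower, where 2.69% of all features tested were higher and 3.63% lower. Acot2, a mitochondrial acyl-CoA thioesterase gene, was at 6.57, 0 and 7.56 CPM in control and 23.4, 32.5 and 14.9 CPM on the high-fat diet (log2 fold change 2.26, SE 0.66, adjusted p = 0.260). Acadl, the long-chain acyl-CoA dehydrogenase gene, was at 24.1, 24.0 and 38.8 CPM against 65.6, 81.7 and 48.3 CPM (1.17, SE 0.37, log2; adjusted p = 0.301). Pdk4, which encodes the kinase that shuts off pyruvate dehydrogenase, was at 405, 232 and 393 CPM in control and 504, 534 and 546 CPM on the high-fat diet, with control 2 lowest (0.62, SE 0.27, log2; adjusted p = 0.691). Txnip, which encodes an arrestin that restrains glucose uptake, was at 45.6, 27.4 and 67.4 CPM against 86.5, 126 and 89.1 CPM (1.10, SE 0.37, log2; adjusted p = 0.424). The groups did not overlap in these 4 genes. Over the 19 tested, 6 were higher without overlap and 0 lower, where 7.23% of all features tested were higher without overlap and 6.86% lower. Ucp3, Acadm, Plin2, Acaa2 and Lpl, also PPAR targets, had log2 fold changes between −0.02 and 0.09.

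Mitochondrial fatty acid oxidation as a whole, 26 in the list, had 21 of 23 tested members higher (median 0.33). At an unadjusted p below 0.05, 3 were higher and 0 lower, where 2.69% of all features tested were higher and 3.63% lower. The 3 were Acadl, also given with the PPAR targets, the malonyl-CoA decarboxylase gene Mlycd (log2 fold change 0.73, SE 0.33) and the dienoyl-CoA reductase gene Decr1 (1.44, SE 0.66). Of the rest, Hadhb, the thiolase subunit of the trifunctional protein, was at 0.94 (SE 0.54), Acadvl, opposite Dvl2, at 0.71 (SE 0.41) and Acsl1, opposite Gm45244, at 0.74 (SE 0.43) on the log2 scale. Acad11, opposite Ackr4, was the lowest member, at −0.61 (SE 0.66). Without control 2 the median was 0.24, and over the 6 fits that left out a library it was 0.10 to 0.47.

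Genes that take up, store and release lipid, 28 in the list, had 14 of 19 tested members higher and 5 lower (median 0.44). At an unadjusted p below 0.05, 3 were higher and 0 lower, where 2.69% of all features tested were higher and 3.63% lower. Lpin1, the phosphatidate phosphatase of triglyceride synthesis that also co-activates PPAR targets, was at 58.0, 27.4 and 52.0 CPM in control and 81.6, 70.8 and 109 CPM on the high-fat diet (log2 fold change 0.92, SE 0.30, adjusted p = 0.321). Pnpla2, the adipose triglyceride lipase gene, was at 55.1, 49.4 and 35.8 CPM against 57.1, 110.5 and 89.1 CPM (0.87, SE 0.33, log2; adjusted p = 0.538). Fabp3, which encodes the fatty acid binding protein of muscle, was at 0.73 (SE 0.34), and Zcchc17, which overlaps it by under 100 bp, at 165, 409 and 249 CPM in control and 481, 600.4 and 328 CPM on the high-fat diet (0.78, SE 0.30, log2; adjusted p = 0.563). Hdgfl2, which overlaps the lipid droplet gene Plin4 by under 100 bp, went the other way, at 118, 259.9 and 149 CPM against 87.2, 96.1 and 86.2 CPM (−0.96, SE 0.27, log2; adjusted p = 0.183). The fatty acid binding protein gene Fabp4 was at 48.5, 39.6 and 38.1 CPM in control and 59.6, 78.7 and 60.9 CPM on the high-fat diet (log2 fold change 0.66, SE 0.33, adjusted p = 0.803), and the part of adipocyte and endothelial RNA in the lipid list was not tested. Peroxisomal oxidation had 7 of 9 tested members higher (median 0.33), with the catalase gene Cat first (0.85, SE 0.37, log2; adjusted p = 0.691), and fatty acid and cholesterol synthesis 4 higher and 5 lower (median −0.03, and 0.19 with total counts only).

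Insulin signalling and glucose uptake genes, 33 in the list, had 16 of 24 tested members higher and 8 lower (median 0.35). At an unadjusted p below 0.05, 4 were higher and 0 lower, where 2.69% of all features tested were higher and 3.63% lower. Eif4ebp1, the repressor of cap-dependent translation that mTORC1 inactivates, was at 20.4, 19.1 and 13.8 CPM in control and 40.1, 29.2 and 49.0 CPM on the high-fat diet (log2 fold change 1.15, SE 0.35, adjusted p = 0.260). The glycogen synthase kinase gene Gsk3b was at 1.25 (SE 0.52) and Foxo3, a transcription factor that insulin excludes from the nucleus, at 1.99 (SE 0.85) on the log2 scale, the latter from levels of 0.489 to 1.97 CPM in control. The insulin receptor substrate gene Irs2, which lies opposite 9530052E02Rik, was lower, at −1.14 (SE 0.58, adjusted p = 0.807). Of the 11 tested features opposite to members of the list, 4 were higher and 7 lower (median −0.32), where 44.4% of all features with an opposite gene were above 0. Their median was −0.14 with total counts only and −0.17 without control 2, and at an unadjusted p below 0.05, 2 were higher and 1 lower.

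**Figure D3:**
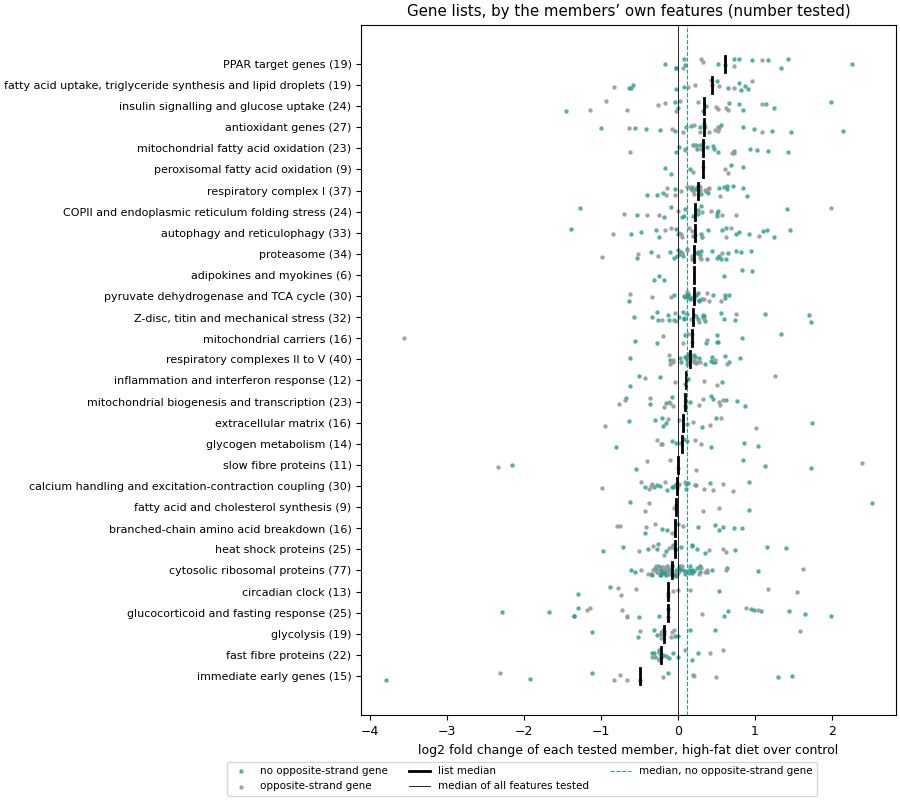
Each point is the log2 fold change (x axis) of 1 tested member of a gene list in its own row, green where no gene lies on the other strand and grey where one does; black bars are list medians, the solid line is the median of all features tested and the dashed line that of features with no opposite gene. PPAR target genes have the highest median (0.62) and immediate early genes the lowest (−0.49), and most lists have members on both sides of 0.

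Genes of the tricarboxylic acid cycle and of the respiratory chain had medians slightly above the 0.12 of features with no opposite gene. The pyruvate dehydrogenase and TCA cycle list had 25 of 30 tested members higher (median 0.21), complex I 30 of 37 (0.27) and complexes II to V 34 of 40 (0.16), and 1, 1 and 2 of their members were higher at an unadjusted p below 0.05, with 0 lower, where 2.69% of all features tested were higher. Over the 6 fits that left out a library the medians were 0.03 to 0.30, 0.13 to 0.37 and −0.01 to 0.29. With each class scaled by itself, which brings the median of features with no opposite gene to 0.02, the 3 lists were at 0.12, 0.22 and 0.10. Examples were the complex I subunit gene Ndufa7 (0.72, SE 0.35), the complex III subunit gene Uqcrq (0.81, SE 0.37) and the cytochrome oxidase gene Cox5a, opposite Gm26631 (0.64, SE 0.31), all on the log2 scale. The features opposite to members of complexes II to V were on the other side of 0, with 2 higher, 9 lower and a median of −0.17, and this median was 0.02 when libraries were scaled by total counts only.

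Slc25a25, opposite Naif1, was the 1 called member among 16 tested mitochondrial carriers, of which 12 were higher and 4 lower (median 0.18). No other carrier was lower at an unadjusted p below 0.05. The carnitine-acylcarnitine carrier gene Slc25a20 was at 6.21, 3.43 and 7.89 CPM in control and 4.61, 13.2 and 7.43 CPM on the high-fat diet (log2 fold change 0.52, SE 0.57), so its groups overlapped. Gm13068, opposite the pyrimidine nucleotide carrier gene Slc25a33, was at 99.7, 308 and 150.3 CPM against 55.3, 65.9 and 90.6 CPM (−1.39, SE 0.31, log2; adjusted p = 0.0776).

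Glycolysis showed the opposite tendency, with 4 of 19 tested members higher and 15 lower (median −0.17), although the median was 0.00 with total counts only. The highest of the 4 was Pfkfb3, which makes fructose 2,6-bisphosphate, the activator of glycolysis, and lies opposite Gm10851. It was at 33.9, 4.89 and 27.6 CPM in control and 94.3, 32.3 and 77.2 CPM on the high-fat diet (log2 fold change 1.59, SE 0.50, adjusted p = 0.400), and high-fat diet 2 was under control 1. Spsb2, which overlaps the triose phosphate isomerase gene Tpi1 by under 100 bp, was at 64.6, 39.2 and 45.0 CPM against 23.8, 19.7 and 25.6 CPM, without overlap (−1.11, SE 0.32, log2; adjusted p = 0.211). Tpi1 itself was at −0.21 (SE 0.23). Glycogen genes had 8 members higher and 6 lower (median 0.06, and −0.17 without control 2), and cytosolic ribosomal protein genes 31 higher and 46 lower (median −0.08, and 0.09 with total counts only).

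Immediate early genes had the lowest median of the lists, −0.49, with 5 of 15 tested members higher and 10 lower (31 in the list). With total counts only 7 of the 15 were higher (median −0.34), and without control 2 also 7 (median −0.61). At an unadjusted p below 0.05, 5 were lower and 0 higher, where 3.63% of all features tested were lower and 2.69% higher. Klf2, which encodes a Krüppel-like factor known for its induction by flow in vessels, was at 22.6, 10.3 and 7.23 CPM in control and 0, 2.09 and 0.371 CPM on the high-fat diet (log2 fold change −3.79, SE 0.91, adjusted p = 0.0985). High-fat diet 1 had no count of it. Nr4a1, the orphan receptor Nur77 that adrenergic stimulation and contraction induce in muscle, was at 32.9, 15.2 and 21.4 CPM against 6.74, 8.59 and 2.60 CPM, without overlap (−1.92, SE 0.50, log2; adjusted p = 0.135).

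Ccn2, a further member, was lower without overlap, as given above with Gm15270. The AP-1 genes Jun and Jund pointed the same way. Jun, opposite Junos, was at 86.1, 45.0 and 62.8 CPM in control and 28.7, 31.8 and 55.0 CPM on the high-fat diet, where high-fat diet 3 was above control 2 (log2 fold change −0.75, SE 0.33, adjusted p = 0.701). Jund was at 45.3, 37.2 and 31.9 CPM against 24.5, 23.9 and 23.8 CPM (−0.66, SE 0.31, log2; adjusted p = 0.773), and Gm11175 opposite to it at 414, 799 and 433 CPM against 261, 291 and 172 CPM (−1.18, SE 0.28, log2; adjusted p = 0.0836). Neither Jund nor Gm11175 overlapped between groups. Not all members followed: Klf10 (1.30, SE 0.72) and Klf6 (1.49, SE 0.83) were higher in all 3 high-fat diet libraries than in any control. The other 8 tested members, among them Dusp1, opposite Ergic1 and Gm8225 (−0.82, SE 0.49) and Klf4 (−1.11, SE 0.97), overlapped between groups.

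Of 13 tested clock genes, 4 were higher and 9 lower (median −0.12, and 0.07 with total counts only). Per1, a negative arm of the clock that glucocorticoids and cyclic AMP also induce, was at 30.3, 14.2 and 21.04 CPM in control and 7.45, 5.80 and 13.7 CPM on the high-fat diet (log2 fold change −1.30, SE 0.50, adjusted p = 0.545). The repressor gene Cry2, opposite D930015M05Rik, was at 4.38, 2.45 and 1.64 CPM against 9.93, 5.57 and 9.66 CPM (1.55, SE 0.71, log2; adjusted p = 0.742). The activator gene Arntl, opposite Gm45355, was at 1.17 (SE 0.78) on the log2 scale, from few counts. Among the 8 tested features opposite to clock genes, 5 were higher and 3 lower (median 0.26, and −0.01 without control 2). At an unadjusted p below 0.05, 0 of them were higher and 2 lower, where 2.36% of features with an opposite gene were higher and 4.52% lower. Gm43909, opposite the repressor gene Bhlhe41, was at 253, 132 and 175 CPM in control and 91.9, 91.7 and 60.2 CPM on the high-fat diet (log2 fold change −1.20, SE 0.32, adjusted p = 0.166). Sphk2, opposite both Rpl18 and the clock output gene Dbp, was at 85.4, 71.5 and 69.4 CPM against 42.2, 45.3 and 42.0 CPM (log2 fold change −0.80, SE 0.30, adjusted p = 0.494). Bhlhe41 and Dbp themselves were at −0.74 (SE 0.60) and −0.12 (SE 0.45).

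Genes of the glucocorticoid and fasting response split in both directions. Of 25 tested members, with 34 in the list, 11 were higher and 14 lower (median −0.13, and 0.02 with total counts only). At an unadjusted p below 0.05, 5 were higher and 7 lower, where 2.69% of all features tested were higher and 3.63% lower. On the higher side, Trim63, Cited2 and the ubiquitin ligase gene Fbxo32, which encodes atrogin-1, stood first. Fbxo32 was at 131, 111 and 179.5 CPM in control and 244, 230.4 and 397 CPM on the high-fat diet (log2 fold change 1.05, SE 0.34, adjusted p = 0.400), and Gm15943 opposite to it at 2315, 2211 and 2532 CPM against 4748, 2750.5 and 6437 CPM (0.98, SE 0.31, log2; adjusted p = 0.362). Gm15943 also lies opposite Klhl38, a Kelch-family gene. High-fat diet 3 was highest and high-fat diet 2 lowest in both rows, as in Trim63.

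On the lower side, Ddit4 was joined by Tsc22d3, which encodes the glucocorticoid-induced leucine zipper protein. It was at 43.4, 33.8 and 87.8 CPM in control and 17.0, 16.0 and 32.3 CPM on the high-fat diet, without overlap (log2 fold change −1.35, SE 0.41, adjusted p = 0.260). The stress gene Gadd45g was at 30.3, 46.0 and 56.6 CPM against 9.58, 17.9 and 24.9 CPM (−1.34, SE 0.41, log2; adjusted p = 0.260). Cebpb, a transcription factor gene induced by glucocorticoids and cyclic AMP, was at −0.72 (SE 0.25), and Tmem189 opposite to it at 585, 1122 and 747 CPM in control and 413, 392 and 432 CPM on the high-fat diet (−0.99, SE 0.24, log2; adjusted p = 0.101). Gadd45a, by contrast, was at 0.88 (SE 0.47).

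Protein and organelle turnover genes were more often higher with all libraries, but near the share of all features without control 2. The proteasome had 26 of 34 tested members higher (median 0.22), led by the activator gene Psme4 (0.95, SE 0.39, log2; adjusted p = 0.636). Autophagy and reticulophagy had 24 of 33 higher (median 0.23), with 1 called member, Tecpr2, which fell, and 2 higher at an unadjusted p below 0.05, Retreg1 and the kinase gene Ulk1 (0.93, SE 0.39). Over all features tested 2.69% were higher and 3.63% lower at that p. Gabarapl1, an ATG8 family gene that FOXO factors induce, was at 12.8, 20.6 and 19.1 CPM in control and 27.3, 23.0 and 34.2 CPM on the high-fat diet (log2 fold change 0.69, SE 0.38, adjusted p = 0.839). The feature opposite to it, 1700101I11Rik, was at 219, 523 and 516 CPM against 832, 449 and 769 CPM (0.70, SE 0.30, log2), and high-fat diet 2 lay between the control libraries. Without control 2, 18 of the 33 autophagy genes and 20 of the 34 proteasome genes were higher. In that fit 3940 of the 7523 features tested were higher, and 1674 of the 3034 with no opposite gene.

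Where a feature and its opposite gene share exon sequence, both rows lay on the same side of 0 in somewhat more pairs than not. Over 1349 pairs that share at least 100 bp, 775 (57.5%) had the same sign, with Pearson r = 0.29 and Spearman rho = 0.26 across pairs, which are not independent replicates and share their libraries. Among 691 pairs in which the more counted feature held at least 5 times the counts of the other, r was 0.35 and 56.7% had the same sign, beside 0.27 and 58.2% in the other 658 pairs. Pairs of the leading genes are examples: Gm15270 and Ccn2 were at −1.47 and −2.30, Tmem189 and Cebpb at −0.99 and −0.72, and Gm15441 and Txnip at 0.61 and 1.10 on the log2 scale. Gm15441 was at 2825, 2365 and 2587 CPM in control and 4559.6, 3199 and 4107 CPM on the high-fat diet, without overlap (SE 0.22, adjusted p = 0.479). Rabep2 and Atp2a1 did not share a sign (−0.28 and 0.10).

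**Figure D4:**
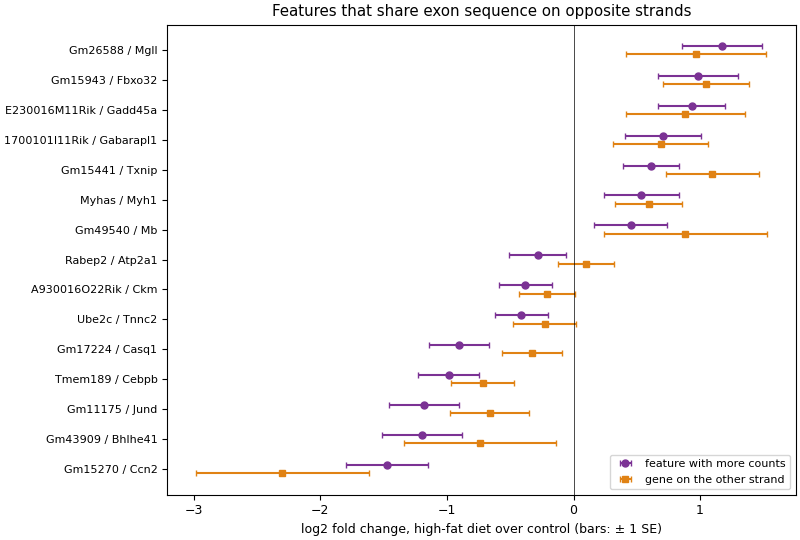
For 15 pairs of features that share exon sequence on opposite strands, the log2 fold change (x axis, bars ± 1 SE) is shown for the feature with more counts (purple circle) and the gene opposite to it (orange square). The pairs were chosen for display after their values had been seen; in 14 of them both rows lie on the same side of 0, and Rabep2 and Atp2a1 lie on different sides, while Gm15943, shown with Fbxo32, also lies opposite Klhl38.

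Fast fibre genes were slightly lower as a list. In their own rows 6 of 22 tested members were higher and 16 lower (median −0.21, and −0.05 with total counts only), and of 7 features opposite to members 1 was higher and 6 lower (median −0.38). In 5 of these 7 all high-fat diet libraries were under all controls, beside 6.86% of all features. Gm17224, opposite the calsequestrin gene Casq1, was at 7842, 6584 and 6951 CPM in control and 3822, 3558 and 4022 CPM on the high-fat diet (log2 fold change −0.91, SE 0.24, adjusted p = 0.141). Gm44646, opposite the fast myosin binding protein gene Mybpc2, was at 8332, 9091 and 8289 CPM against 6103, 4347 and 7233 CPM (−0.54, SE 0.23, log2; adjusted p = 0.669). Myosin heavy chains differed in direction: Myh1, the IIx chain, was at 4913, 4680.3 and 5048 CPM in control and 8381, 8545 and 5145 CPM on the high-fat diet (0.59, SE 0.27, log2; adjusted p = 0.732), and Myh4, the IIb chain, at 42727, 23551 and 34584 CPM against 24812, 21889 and 35366 CPM (−0.30, SE 0.25, log2; adjusted p = 0.920). Myhas, which is transcribed opposite Myh1 and shares 515 bp of exon with Myh1, was at 0.53 (SE 0.30). None of these passed.

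None of the 10 most counted features passed the test. By the deposited FPKM, a count per length and depth, A930016O22Rik opposite Ckm averaged 54469 in control and 47337 on the high-fat diet, Ube2c opposite Tnnc2 38601 and 32799, and Rabep2 opposite Atp2a1 32492 and 30156. Their log2 fold changes in counts were −0.38 (SE 0.21), −0.41 (SE 0.21) and −0.28 (SE 0.22), and the libraries of the groups did not overlap in any of the 3. Gm49540, opposite the myoglobin gene Mb, was at 13374, 24426 and 13514 CPM in control and 25005, 27889 and 17293 CPM on the high-fat diet (0.45, SE 0.29, log2), with control 2 among the high-fat diet libraries, and Mb itself at 468, 412 and 398 CPM against 771, 1027 and 558 CPM (0.88, SE 0.65, log2; adjusted p = 0.914). The other 6 of the 10 most counted features were Tlcd3b opposite Aldoa (−0.23, SE 0.22), Gm20721 opposite Gnas (−0.33, SE 0.21), the troponin gene Tnnt3, opposite Prr33 (−0.24, SE 0.23), the pseudogene Gm11408 (−0.51, SE 0.31), Myh4 and Myhas. With total counts only, the changes of A930016O22Rik, Ube2c and Rabep2 were −0.20, −0.23 and −0.11.

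Control 2 stood apart in features of the Myh7 locus and in Tnnt1, but not in all slow fibre markers. Mhrt, opposite the slow myosin gene Myh7, was at 19.0, 399 and 15.8 CPM in control and 0, 26.7 and 18.9 CPM on the high-fat diet, so control 2 was far above the other 5 libraries. Myh7 itself was at 4.02, 36.2 and 1.97 CPM against 0, 4.18 and 3.71 CPM (log2 fold change −2.33, SE 1.18) and the slow troponin gene Tnnt1 at 2.19, 22.02 and 6.58 CPM against 0, 5.34 and 0.743 CPM (−2.16, SE 0.99). Control 2 was highest in both, and also in Tnnc1, with 0, 9 and 5 counts in control and 3, 4 and 1 on the high-fat diet. In other slow markers it was not. Myl2 had 0, 17 and 14 counts in control and 0, 39 and 0 on the high-fat diet. Tpm3 had 10, 18 and 16 against 2, 37 and 6. Slow fibre proteins had 6 of 11 tested members higher (median 0.01, and 0.45 without control 2), among them the slow light chain gene Myl3, opposite Pth1r, at 4.75, 4.40 and 0.329 CPM in control and 23.8, 20.2 and 4.83 CPM on the high-fat diet (2.40, SE 0.78, log2; adjusted p = 0.400). Whether the slow fibre RNA of control 2 bears on the 4 falls was not tested.

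**Figure D5:**
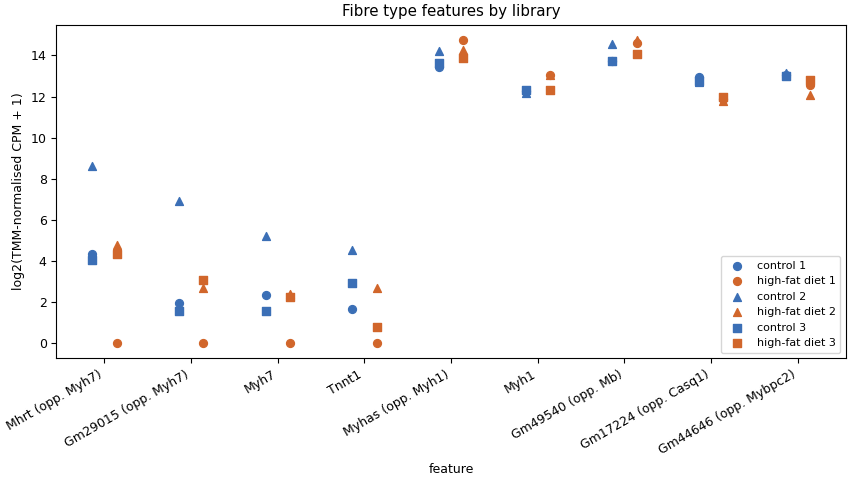
Log2 of TMM-normalised CPM plus 1 (y axis) is shown by library for 9 fibre type features (x axis, with the gene on the other strand in parentheses), with blue symbols for control, orange for high-fat diet and 1 shape per library number. Control 2 (blue triangle) is the highest library in Mhrt, Gm29015, Myh7 and Tnnt1, whereas in Gm17224 and Gm44646 all high-fat diet libraries lie under all controls.

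Genes of the Z-disc and of mechanical stress had 22 of 32 tested members higher (median 0.20, and 0.04 without control 2), 3 of them at an unadjusted p below 0.05, where 2.69% of all features tested were higher. Nrap, an actin anchor at the fibre end that lies opposite Habp2 and Gm17197, was at 525, 289.7 and 491 CPM in control and 775, 777 and 664 CPM on the high-fat diet (log2 fold change 0.76, SE 0.24, adjusted p = 0.260). The filamin gene Flnc (0.61, SE 0.24) and Bag3, which encodes a co-chaperone that clears damaged filamin (0.75, SE 0.30), followed. Among heat shock genes, 11 of 25 were higher (median −0.03, and 0.11 with total counts only), and Hspb7, a small heat shock protein of the Z-disc, was at 18.3, 56.3 and 64.8 CPM in control and 124, 175 and 70.6 CPM on the high-fat diet (1.41, SE 0.39, log2; adjusted p = 0.206). Calcium handling had 14 of 30 higher (median −0.01, and 0.15 with total counts only), and of the features opposite to its members Aven, opposite the ryanodine receptor gene Ryr3, was at 8.40, 70.5 and 68.4 CPM in control and 14.2, 8.12 and 4.09 CPM on the high-fat diet (−2.47, SE 0.63, log2; adjusted p = 0.190), with control 1 beside the high-fat diet libraries.

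Antioxidant genes had 20 of 27 tested members higher (median 0.34), and share Txnip and Cat with lists given above. Where 2.69% of all features tested were higher and 3.63% lower at an unadjusted p below 0.05, 4 members were higher and 1 lower. Besides Txnip and Cat these were the glutathione reductase gene Gsr, at 1.46, 0.979 and 1.32 CPM in control and 3.55, 4.87 and 8.91 CPM on the high-fat diet (2.15, SE 0.86, log2), the sulfiredoxin gene Srxn1 (1.23, SE 0.59) and, on the lower side, the glutathione synthetase gene Gss, opposite Acss2, Gssos1 and Gssos2, at 184, 232 and 139 CPM against 105, 130.0 and 124 CPM (−0.63, SE 0.24, log2; adjusted p = 0.531). Gm45774, opposite the metallothionein gene Mt2, was at 43.8, 494 and 76.9 CPM in control and 105, 88.2 and 78.7 CPM on the high-fat diet, with control 2 far above the rest.

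Inflammatory and interferon genes had 7 of 12 tested members higher (median 0.11; 40 in the list), and none reached an unadjusted p below 0.05. All 7 tested features opposite to members were higher (median 0.62), where 44.4% of all features with an opposite gene were above 0. Only 2 of the 7 were at an unadjusted p below 0.05, where 2.36% of features with an opposite gene were higher. Gm17041, opposite the cytokine signalling inhibitor gene Cish, was at 12.4, 14.2 and 15.5 CPM in control and 27.3, 60.6 and 33.4 CPM on the high-fat diet (1.54, SE 0.42, log2; adjusted p = 0.223), and Gm11131, opposite the class I gene H2-Q4, at 68.6, 81.7 and 74.97 CPM against 121, 128 and 118 CPM (0.71, SE 0.24, log2; adjusted p = 0.399). Their groups did not overlap. Macrophage and leukocyte markers summed to 69.8 to 112.3 CPM in control and 102.3 to 124.5 on the high-fat diet. Csf1r, opposite Hmgxb3, was the 1 marker tested (log2 fold change 0.06, SE 0.25). It had 189, 251 and 288 counts in control and 272, 372 and 312 on the high-fat diet. The rest had few counts. C1qa had 0, 0 and 0 against 2, 2 and 2, and Lyz2 6, 8 and 0 against 2, 0 and 0. The leukocyte gene Ptprc had 2 counts in high-fat diet 2 and 0 in the other 5 libraries, and Tyrobp had 0 in all 6. Gm32312, opposite Ostn, which encodes the peptide osteocrin secreted by muscle and bone, was at 30.3, 132 and 115 CPM in control and 17.0, 18.8 and 33.1 CPM on the high-fat diet, with high-fat diet 3 above control 1 (−2.01, SE 0.43, log2; adjusted p = 0.0776). Extracellular matrix genes had 9 of 16 members higher (median 0.07), mitochondrial biogenesis genes 12 of 23 (0.09), branched-chain amino acid breakdown 8 of 16 (−0.03, and 0.16 with total counts only) and COPII and endoplasmic reticulum stress genes 16 of 24 (0.23, and 0.07 without control 2, with 13 of 24 higher).

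The medians of the 2 classes of features lay on different sides of 0, but not under each alternative. Among features with no opposite gene the median log2 fold change was 0.12, with 59.7% above 0 beside 50.6% of all features, 3.16% higher and 2.31% lower at an unadjusted p below 0.05. Among features with an opposite gene it was −0.06, with 44.4% above 0, 2.36% higher and 4.52% lower. With total counts only the medians were 0.29 and 0.12, and without control 2 they were 0.08 and 0.01. The share of counts on features with no opposite gene was 15.5%, 10.3% and 14.1% in control 1, 2 and 3 and 12.8%, 14.3% and 15.3% in high-fat diet 1, 2 and 3. The means, 13.3% ± 2.69 and 14.1% ± 1.29 (SD, n = 3 each), differed by 0.819 percentage points (exact permutation test, two-sided, p = 0.7; the smallest p that 3 against 3 allows is 0.1). Control 2 was the lowest library, and without it the difference was −0.680 points. With each class scaled by itself the PPAR target genes were at 0.53 and fatty acid oxidation at 0.32.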

How the data were processed

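RNA of 9 mouse muscle libraries from a stranded mRNA kit was sequenced by the authors, per the labels' protocols. The authors deposited 1 table of raw read counts per feature and of FPKM, with positions in GRCm39; HISAT2 2.2.0, HTSeq 0.13.5, Bowtie2 2.4.2, Trim Galore 0.6.4 and GRCm39 are named in the submitters' processing notes. None of the sources used here states the strand setting of the counting. The deposited FPKM served only for levels between features.

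Counts were tested with edgeR 4.0.16 (R 4.3.3): TMM scaling, filterByExpr by group, and a robust quasi-likelihood F-test with Benjamini-Hochberg adjustment over 7523 features, in a fit of all 9 libraries, so that the high-fat diet plus L-carnitine group (100 mg/kg/day) shares the spread estimate. Standard errors are the log2 fold change over the square root of F. CPM are TMM-normalised unless summed over markers, which are per total counts. The 3-count floor of a library was 0.795 to 1.30 CPM and, like all counts, covers counting error only. An opposite gene is a feature on the other strand whose span overlaps; shared exon lengths come from GENCODE M21 (GRCm38), where 19097 features were found. In simulated data for this comparison over 7523 features, with 50 features per size, 40% of 4-fold falls (log2 −2), 80% of rises of the same size (log2 2), 8% at log2 −1 and 14% at log2 1 were called. All sizes were planted together, and more calls loosen the adjusted cutoff. These shares may therefore be higher than in the real data, where few features passed.

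Named features are the called ones, then up to 12 per direction by p with groups that do not overlap and at least 5 CPM, up to 4 per list and the 10 most counted; further list members and opposite genes were named after their values had been seen. The members and lists were chosen with earlier results of these data known. Alternatives were other scalings, filters, tools (DESeq2 1.42.0, limma 3.58.1), the 6 libraries alone, a block, a covariate and leaving out each library.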

Additional observations from a re-analysis of the deposited data

How the results depend on the processing

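The 4 falls were also called with RLE size factors (6 features in all), with no expression filter (68), with a filter of 1 CPM in 3 libraries (40), with DESeq2 (35), with limma-voom (8), in the 6 libraries alone (40) and with the share of counts on features with no opposite gene as a covariate, added after seeing the data (8). With total counts only and with each class scaled by itself 0 were called by edgeR, with 528 and 515 features at an unadjusted p below 0.05. Leaving out each library gave 0 to 13 calls, and the number of features at an unadjusted p below 0.05 was 383 without control 2 and 391 without high-fat diet 3. The cause was not tested. The replicate block gave 10 calls. Deviations from the group means had correlations of −0.01, 0.03 and 0.01 between same-numbered libraries and −0.07 to 0.07 between the others. With 3 libraries a group this cannot exclude a shared batch or pairing, and the labels name none.

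The difference in the share of counts between groups was −0.680 to 1.93 percentage points when a library was left out. Some single features changed sign. Log2 fold changes ranged over the fits without a library from −0.67 to 0.21 for Vegfb, −0.075 to 2.27 for Mstn, −0.25 to 0.15 for Acaa2, −0.18 to 0.31 for Acadm, −0.031 to 0.23 for Atp2a1, −0.35 to 0.27 for Lpl, −0.28 to 0.46 for Plin2 and −0.012 to 0.17 for Ucp3. With total counts only Acaa2 and Lpl were both at 0.18, with each class scaled by itself Plin2 was at −0.066, with the replicate block at −0.047, and with the covariate Acadm and Ucp3 were at −0.027 and −0.060. The depth of 2315985 to 3773649 counts limits low features such as Foxo3 and Gsr most.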
